A study of Rattus norvegicus with 13 samples.

Results

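Strong default sites that gave almost no signal in rats with 1 functional copy of Prdm9 were examined in the DMC1 maps of rat testis. They were chosen by measured hotspot strengths and by spacing. A site had to lie on chromosomes 1 to 20, with a strength of at least 150 in the library without functional Prdm9 (KO/KO), at most 10 in the library with 1 functional copy (KO/wt) and at most 15 in wild-type SHR. No other window of the map could start within 3000 bp. Of the 96640 windows of the map, 1302 met this rule and are called silent sites here. Without the limit on KO/wt strength, 5267 windows met it, and these are called strong isolated default sites. The silent sites were 24.7% of them (Wilson 95% interval 23.6 to 25.9%).

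Adult testes were compared in 5 DMC1 libraries, with 1 library per condition. Of these, 3 came from the SHR/OlaIpcv strain, the spontaneously hypertensive rat. They were Prdm9-/- (KO/KO), Prdm9+/- (KO/wt) and wild type, and the KO/KO male carried a truncating Prdm9 deletion on both chromosomes and was compared in the study with a wild-type littermate. The labels do not say which deletion the KO/wt animal carried. The other libraries came from wild-type WKY (Wistar Kyoto), whose Prdm9 allele is that of SHR, and from wild-type BN/RIJHsd (Brown Norway), whose allele differs. Strength is a whole number that the authors give for every window in every library. It can lie below 0, its definition and its scaling on the autosomes are not stated in the sources used here, and the depth in reads is unknown, so levels are compared between windows of the same library. Where strength in KO/wt is given relative to another library, only differences of that ratio between sets of windows are read, not its size. Conditions could not be tested against each other in the absence of replicates, and every interval below covers only counting over windows of these libraries.

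Meiotic recombination starts with programmed double-strand breaks (DSBs). DMC1 is the meiotic recombinase that coats the single-stranded DNA around a break, and single-stranded DNA sequencing (SSDS) of DNA bound by DMC1 shows hotspots as places where such fragments pile up. In most mammals PRDM9, a histone methyltransferase with a DNA-binding zinc-finger array, sets H3K4me3 at its own motifs and the breaks form there. Without PRDM9 the breaks form at default sites, which carry H3K4me3 set by other enzymes and include many promoters. The amount of PRDM9 is known to matter for mouse meiosis, and a rat with 1 functional copy allows default sites to be followed between full and no dosage.

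The strengths that chose the silent sites are given first, as a description. In KO/KO their median was 189, with quartiles of 165 and 232 and a range of 150 to 697. In KO/wt the median was 7, with quartiles of 4 and 9 and a range of -11 to 10, and in wild-type SHR it was 2, with a range of -15 to 15. Most silent sites were therefore near the lower limit of KO/KO strength, and 760 of them lay under 200. KO/wt strength was 0 or lower at 84 silent sites (6.45%). Only 21 sites were at 0 or lower in both KO/wt and wild-type SHR. A hotspot was called in KO/KO at 1302 of 1302 sites, in KO/wt at 0 and in wild-type SHR at 0. Over all 91120 autosomal windows the called shares were 21.6% in KO/wt, 38.8% in KO/KO and 21.8% for the SHR wild type, and since the rule used these libraries nothing is read from the contrast.

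Isolated windows called in BN alone give the KO/wt strength of windows whose hotspots belong to another Prdm9 allele. These 14877 windows had a mean KO/wt strength of 3.97. When they were cut at the same KO/wt limit of 10, which 92.0% of them met, the mean was 2.76. The silent sites had a mean of 6.20. With the same limit on both sets, the KO/wt medians were 7 at the silent sites and 3 at the BN windows. Strengths of 0 or lower made up 6.45% and 26.0%. Of the 1302 silent sites, 372 stood at 9 or 10. The name silent refers to the limit and is not a statement that KO/wt signal was absent. The rule used these KO/wt values. Its limit cuts off the lower tail of the strong isolated default sites, whose KO/wt median was 17. Most BN windows lay under the limit without a cut. The sets are therefore not alike under the same limit, and nothing is read from the difference between them. The cause of the difference was not tested.

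KO/wt strength went with KO/KO strength among the strong isolated default sites, so the silent share has to be read at like KO/KO strength. It was 36.2% of 2101 sites with KO/KO strengths of 150 to 199 (34.1 to 38.3%) and 24.0% of 1828 sites with 200 to 299 (22.1 to 26.0%). It was 9.56% of 1046 sites with 300 to 499 (7.92 to 11.5%) and 1.03% of 292 sites with 500 or more (0.350 to 2.98%). The median KO/wt strength in these 4 bands was 13, 17, 24 and 38. In the lowest band the middle 90% of sites spanned KO/wt strengths of 2 to 34, so that sites alike in KO/KO differed widely with 1 copy. Summed over sites, KO/wt strength was 2.99% of KO/KO strength at the silent sites and 9.19% at the other 3965. Of the latter, 2888 had KO/wt strengths of 11 to 29 and 1077 had 30 or more, and both sets are used below for comparison.

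**Figure D1:**
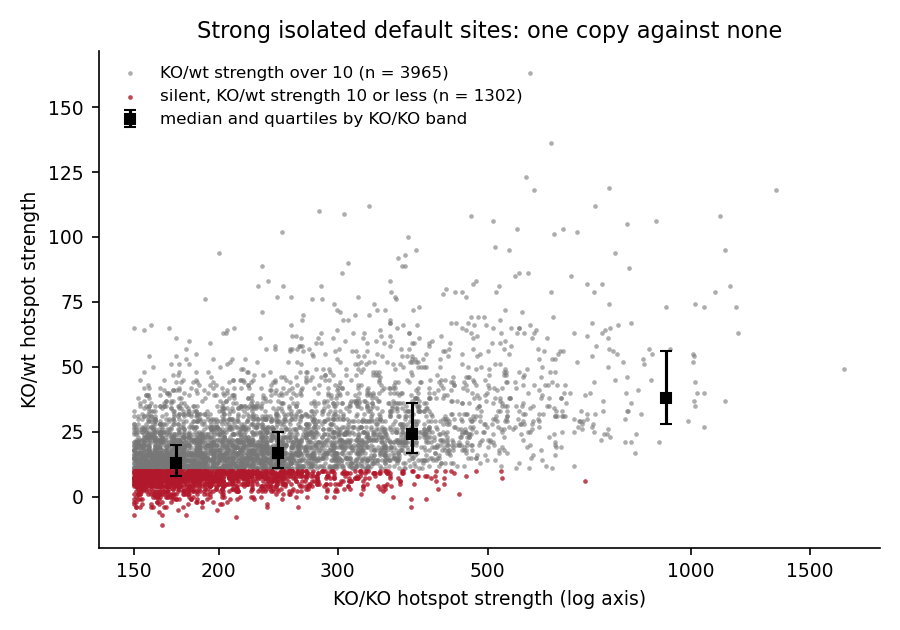
KO/wt hotspot strength against KO/KO hotspot strength (log axis) at the 5267 strong isolated default sites, with the 1302 silent sites in red and the other 3965 in grey, and with squares and bars for the median and quartiles in 4 bands of KO/KO strength. The band medians run from 13 to 38, while the silent sites fill the strip at or below 10 and thin out towards high KO/KO strength.

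The 10 silent sites strongest in KO/KO are listed next. The rule set their low KO/wt strengths, so the gap between KO/KO and KO/wt is not read. All coordinates are those of the rn5 assembly, as deposited. The site chr4:160749515-160752515 had strengths of 697 in KO/KO and 6 in KO/wt, and the wild types had 3 in SHR, 10 in WKY and 15 in BN. The site chr7:97832944-97835944 had 525 in KO/KO and 7 in KO/wt, and the wild types had 4 in SHR, 36 in WKY and 1 in BN. The site chr17:36698051-36701051 had 523 in KO/KO and 10 in KO/wt, and the wild types had 0 in SHR, 29 in WKY and 10 in BN. These were the 3 silent sites at 500 or more, and among the 292 sites of that band the median KO/wt strength was 38.

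The next of them lay between 480 and 431 in KO/KO. The site chr18:50902456-50905456 had 480 in KO/KO and 10 in KO/wt, and the wild types had 5 in SHR, 15 in WKY and 8 in BN. The site chr11:52753740-52756740 had 465 in KO/KO and 8 in KO/wt, and the wild types had 0 in SHR, 46 in WKY and 14 in BN. The lowest KO/wt strength among the 10 was that of chr14:60921028-60924028, with 454 in KO/KO and 1 in KO/wt, and the wild types had 11 in SHR, 10 in WKY and 5 in BN.
The site chr15:60386483-60389483 had 446 in KO/KO and 9 in KO/wt, and the wild types had -2 in SHR, 21 in WKY and 12 in BN. The site chr11:41782562-41785562 had 441 in KO/KO and 10 in KO/wt, and the wild types had -2 in SHR, 26 in WKY and 18 in BN. Chromosomes 11 and 18 each held 2 of these 10 sites.
The site chr18:24405987-24408987 had 432 in KO/KO and 10 in KO/wt, and the wild types had 7 in SHR, 31 in WKY and 15 in BN. Last of the 10 was chr1:285924901-285927901, with 431 in KO/KO and 5 in KO/wt, and the wild types had 3 in SHR, 30 in WKY and -4 in BN. It alone among the 10 was close to a chromosome end, 4.17 Mb from the last window of chromosome 1. No library other than KO/KO had a call at any of the 10. The same held at every silent site but the 6 called in BN.

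Sites on either side of the limits are described next. Windows outside a limit had to meet the rest of the rule, so some likeness to the silent sites is built in. At the KO/KO limit there were 23 silent sites at 150 and 29 windows at 149 that met the rest of the rule. The silent sites of 150 starting at 103188010 and 264651219 on chromosome 1 and at 167260447 on chromosome 2 had KO/wt strengths of 8, -7 and 5. The windows of 149 starting at 104043036, 143320291 and 184991996 on chromosome 1 had 8, 10 and 2. The KO/wt limit ran through the densest part of the distribution, with 174 silent sites at 10 and 196 windows at 11. Of the former, those starting at 44860585, 53799896 and 54240278 on chromosome 1 had KO/KO strengths of 217, 161 and 214, and of the latter those at 32348898, 45483441 and 71262100 on chromosome 1 had 157, 163 and 230.

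The other limits removed few or many windows. Wild-type SHR strength was 15 at 7 silent sites, and 12 windows exceeded it and met the rest. The sites at 15 starting at 219661365 on chromosome 2, 21792443 on chromosome 4 and 93195633 on chromosome 9 had KO/KO strengths of 165, 156 and 284, and the windows just outside, starting at 104203029 on chromosome 2, 49240806 on chromosome 18 and 241390983 on chromosome 1, had 178, 183 and 173. The spacing condition set aside 205 windows. The tightest gaps inside it were 3024, 3030 and 3048 bp, at 43556327 on chromosome 2, 60964860 on chromosome 14 and 60219881 on chromosome 4. The widest outside were 2980, 2964 and 2953 bp, at 84513456 on chromosome 8, 32641050 on chromosome 18 and 79183819 on chromosome 2.

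WKY and BN were not used by the rule, and both maps were low at the silent sites. No silent site was called in WKY, which allows a share of up to 0.230% by the limit of 3 counts and up to 0.294% by the Wilson interval, both for counting error only, and 6 were called in BN, or 0.461% (0.211 to 1.00%). Over all autosomal windows 38.3% were called in WKY and 20.8% in BN. Sites with KO/wt strengths of 11 to 29 were called in WKY at 0 of 2888 and in BN at 15 (0.519%, 0.315 to 0.855%). Sites with 30 or more were called in WKY at 4 of 1077 (0.371%) and in BN at 19 (1.76%, 1.13 to 2.74%). This BN interval does not overlap that of the silent sites, but the KO/KO medians also differed, at 318 against 189. Calls were not compared at like KO/KO strength, so nothing is read from that gap. The requirement of a low wild-type SHR strength, a strain with the Prdm9 allele of WKY, applies to all 3 sets.

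Strengths below the calling threshold were slightly lower at the silent sites than at the others. The WKY median was 17 at silent sites (95% interval 16 to 18), 19 at sites with KO/wt strengths of 11 to 29 (18 to 20) and 23 at those with 30 or more (22 to 25). The BN median was 7 (7 to 8), 9 (8 to 9) and 10 (9 to 11). Part of this order remained at like KO/KO strength: at 150 to 199 the medians of silent and other sites were 16 (15 to 18) and 21 (20 to 22) in WKY and 7 (6 to 8) and 9 (8 to 9) in BN. At 200 to 299 the WKY medians were 17 (15 to 19) and 20 (19 to 22), with intervals that meet. The BN medians there were 7 (7 to 8) and 9 (9 to 9). At 300 to 499 the WKY medians were 18.5 (15 to 23) and 20 (18 to 21). The BN medians in that band were 8.5 (6 to 11) and 9 (8 to 10), and in both libraries its intervals overlap. Windows called in BN alone had a WKY median of 23, above that of the silent sites. Those windows had no limit on wild-type SHR strength, while silent sites did. The sets are thus not alike, and nothing is read from this difference.

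The highest WKY strengths among silent sites were all below the calling mark. The site chr3:53470746-53473746 had 255 in KO/KO and 10 in KO/wt, and the wild types had 14 in SHR, 87 in WKY and 6 in BN. It lay 11.9 kb from the window starting at 53458839, whose strength was 26104 in WKY, 6649 for the SHR wild type, 10158 in KO/wt, 44 in KO/KO and 9 in BN. Spillover from that hotspot was not tested. The site chr14:17860179-17863179 had 181 in KO/KO and 8 in KO/wt, and the wild types had 5 in SHR, 66 in WKY and 11 in BN, and its nearest window of 40 or more in wild-type SHR was 186 kb away. The site chr1:169096219-169099219 had 201 in KO/KO and 2 in KO/wt, and the wild types had -2 in SHR, 65 in WKY and 13 in BN. None of these 3 was called in WKY.

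The 6 silent sites called in BN had BN strengths from 42 to 246. The site chr3:53103766-53106766 had 303 in KO/KO and 6 in KO/wt, and the wild types had -3 in SHR, -3 in WKY and 246 in BN. The site chr3:68873695-68876695 had 201 in KO/KO and 10 in KO/wt, and the wild types had 7 in SHR, 34 in WKY and 166 in BN. The site chr3:61965423-61968423 had 165 in KO/KO and 6 in KO/wt, and the wild types had 4 in SHR, 8 in WKY and 103 in BN. These 3, the strongest in BN, all lay on chromosome 3, which held 80 silent sites. The other 1222 silent sites gave the remaining 3. Chromosome 3 was singled out after these values were seen. The share of its other windows called in BN is not given here, so nothing is read from this count.
The site chr18:30584538-30587538 had 155 in KO/KO and 6 in KO/wt, and the wild types had 8 in SHR, 17 in WKY and 56 in BN. The site chr11:47202903-47205903 had 235 in KO/KO and 3 in KO/wt, and the wild types had -2 in SHR, 34 in WKY and 45 in BN. The site chr19:59575017-59578017 had 158 in KO/KO and 9 in KO/wt, and the wild types had -2 in SHR, 19 in WKY and 42 in BN. The sequence of these windows was not examined, since a genome of the rn5 build was not used here. The last 3 were named after their values were seen.

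Distance to the nearest window with a wild-type SHR strength of 40 or more addressed whether silent sites stand beside PRDM9-directed hotspots. Measured from centre to centre, the median was 42.1 kb (39.4 to 45.4 kb), with quartiles of 20.5 and 83.5 kb and a range of 3.13 to 593 kb. Within 10 kb lay 144 silent sites (11.1%), within 50 kb 724 (55.6%) and within 100 kb 1055 (81.0%). The medians of the comparison sets were 46.0 kb (43.5 to 48.2 kb) for KO/wt strengths of 11 to 29 and 46.2 kb (42.4 to 50.7 kb) for 30 or more, with intervals that overlap those of the silent sites. At KO/KO strengths of 200 to 299 the medians of silent and other sites were 38.2 kb (34.5 to 44.0 kb) and 46.3 kb (42.8 to 49.96 kb). They were 44.6 and 48.0 kb at 150 to 199, and 36.4 and 44.0 kb at 300 to 499. Silent sites were thus nearer in each of these bands, with intervals that overlap.

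Read the other way, and without matching on KO/KO strength, the silent share hardly varied with this distance. It was 23.9% of the 603 strong sites 3 to 10 kb from such a window (20.6 to 27.4%), 26.4% of the 1527 at 20 to 50 kb (24.2 to 28.7%) and 23.1% of the 1070 farther than 100 kb (20.7 to 25.7%). The nearest such windows were 1183 distinct windows with a median wild-type SHR strength of 84 (80 to 88). They lay at the higher coordinate for 641 of 1302 silent sites.

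The silent sites nearest to a wild-type SHR window of 40 or more lay just past the spacing limit. The site chr17:59787718-59790718 had 189 in KO/KO and 9 in KO/wt, and the wild types had 15 in SHR, 13 in WKY and -3 in BN, at 3.13 kb from a window of 40 in wild-type SHR. The site chr2:137225699-137228699 had 243 in KO/KO and 1 in KO/wt, and the wild types had 10 in SHR, 29 in WKY and 4 in BN, at 3.14 kb from a window of 84. The site chr5:111679744-111682744 had 150 in KO/KO and -3 in KO/wt, and the wild types had 0 in SHR, 7 in WKY and 4 in BN, at 3.17 kb from a window of 51. The farthest 3 stood together on chromosome 19.
The site chr19:63798557-63801557 had 187 in KO/KO and 10 in KO/wt, and the wild types had 0 in SHR, 14 in WKY and -2 in BN, at 593 kb. The site chr19:63988809-63991809 had 197 in KO/KO and 7 in KO/wt, and the wild types had 5 in SHR, 14 in WKY and -2 in BN, at 581 kb. The site chr19:63760192-63763192 had 168 in KO/KO and 6 in KO/wt, and the wild types had 5 in SHR, -7 in WKY and 8 in BN, at 555 kb. The rule sets the low KO/wt and wild-type SHR strengths at all 6 sites, so only their positions, WKY and BN strengths are free to differ.

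**Figure D2:**
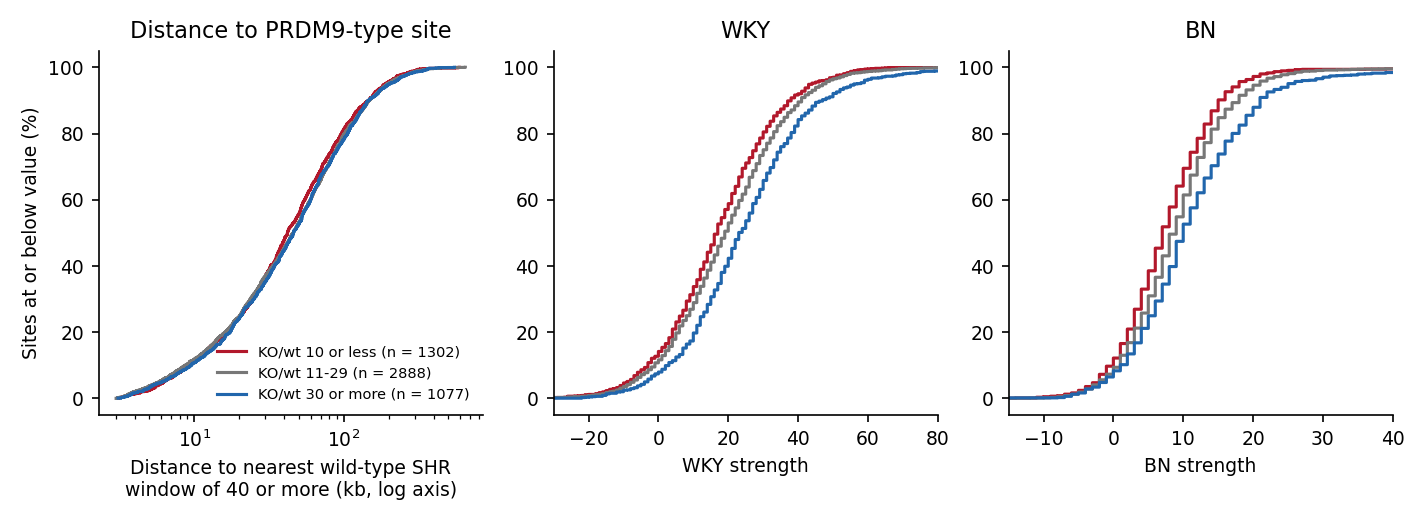
Cumulative percent of strong isolated default sites by distance to the nearest wild-type SHR window of 40 or more (kb, log axis), by WKY strength and by BN strength, for 1302 silent sites (red), 2888 sites with KO/wt strengths of 11 to 29 (grey) and 1077 with 30 or more (blue); the strength axes leave out the most extreme sites. The 3 distance curves nearly coincide, while the red curves for WKY and BN lie to the left, with medians of 17 and 7 against 23 and 10 for the blue ones.

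Other KO/KO hotspots lay somewhat farther from silent sites. The median distance to the nearest was 19.6 kb (18.6 to 21.5 kb), against 17.3 kb (16.4 to 18.0 kb) for KO/wt strengths of 11 to 29 and 15.6 kb (14.5 to 16.9 kb) for 30 or more. At KO/KO strengths of 150 to 199 the medians were 20.5 kb (19.0 to 22.7 kb) for silent and 16.4 kb (15.5 to 17.5 kb) for other sites, but at 200 to 299 they were 18.2 and 17.4 kb. The nearest window of any kind was at a median of 9.81 kb from silent sites and 9.49 kb from the others.

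Silent sites tended to have silent neighbours. The nearest other strong isolated default site was itself silent for 488 of 1302 silent sites (37.5%, 34.9 to 40.1%) and for 756 of 3965 other sites (19.1%, 17.9 to 20.3%). The difference held with distance: for neighbours within 100 kb the shares were 34.8% and 18.3%, at 100 to 500 kb 40.3% and 19.9%, and at 500 to 2000 kb 38.5% and 19.0%. Site and neighbour were both classed by the KO/wt strengths of the rule. Sites nearest to each other enter from each side, so the intervals may be too narrow. The shares were not compared at like KO/KO strength and are a description.

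The longest unbroken series of silent sites held 10 consecutive strong sites on chromosome 18, from 35951766 to 41093981. Over these 5.14 Mb the KO/KO strengths ran from 156 to 347 and the KO/wt strengths from 1 to 10. Series of 8 occurred on chromosome 1 from 53799896 to 58449956 and on chromosome 4 from 147012578 to 149010059. The longest series without a silent site held 64 strong sites on chromosome 1, from 3399703 to 33004155, with KO/KO strengths of 152 to 755 and KO/wt strengths of 11 to 110 (median 43.5). Further such series held 54 sites on chromosome 14, from 87457648 to 110850607, and 53 on chromosome 9, from 101806661 to 119273084. These stretches were picked by the values they hold, so their contrast is a description.

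Every autosome held silent sites, from 18 on chromosome 19 to 138 on chromosome 4. As a share of the strong isolated default sites of the chromosome they were 35.8% on chromosome 4 (31.2 to 40.8%) and 33.7% on chromosome 1 (29.2 to 38.4%), against 11.9% on chromosome 19 (7.67 to 18.1%) and 13.3% on chromosome 20. Chromosome 12 had 17.6% and the other 15 lay between 19.4% and 27.4%. At KO/KO strengths of 150 to 199 the same chromosomes were set side by side, with 50.3% on chromosome 4 (42.7 to 57.9%), 46.5% on chromosome 1, 22.7% on chromosome 19 and 19.0% on chromosome 20 (10.9 to 30.9%). Chromosomes of neighbouring rank were mostly within each other's intervals.

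**Figure D3:**
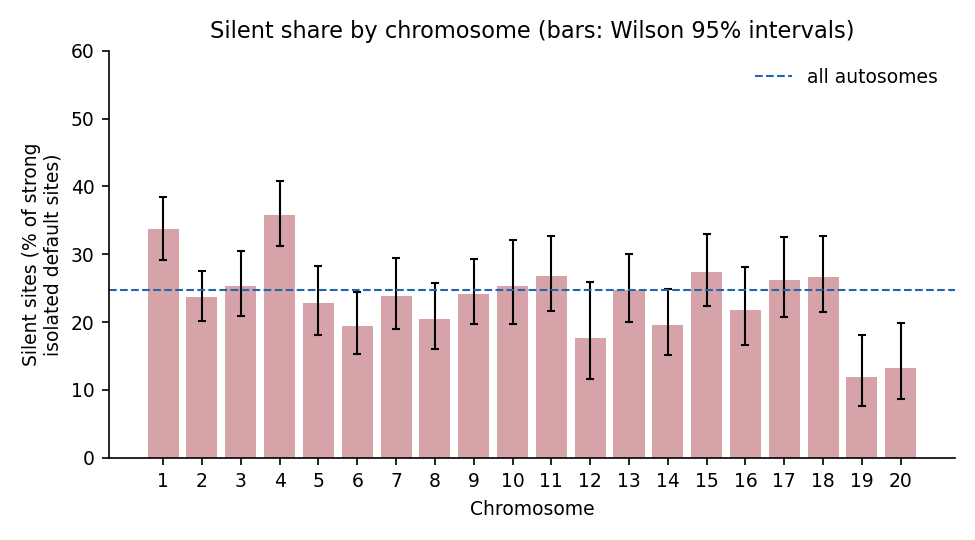
Percent of strong isolated default sites that were silent on each of the 20 autosomes, with Wilson 95% intervals over sites as error bars and a dashed line at the share over all autosomes, 24.7%. Chromosomes 1 and 4 stand above the line and chromosomes 19 and 20 below it by more than their intervals, and chromosome 6 (19.4%, upper bound 24.4%) narrowly so.

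Silent sites were scarce near the chromosome ends. Ends were taken as the first and the last window of each chromosome in the map. Within 10 Mb of them lay 81 silent sites (6.22%, 5.03 to 7.67%) and 643 other strong isolated default sites (16.2%, 15.1 to 17.4%). All autosomal KO/KO hotspots had 17.1% there and wild-type SHR hotspots 15.1%. At KO/KO strengths of 150 to 199 the shares were 6.97% of silent (5.37 to 9.01%) and 18.6% of other sites (16.6 to 20.7%). Both kinds of end showed it, since 2.69% of silent and 7.39% of other sites lay near the first window, and 3.53% and 8.83% near the last.

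The silent share was 14.3% of 1598 strong sites within 20 Mb of an end (12.6 to 16.1%) and 29.3% of 3669 sites beyond (27.8 to 30.8%). It was higher beyond 20 Mb on 18 of 20 chromosomes. The exceptions were chromosome 5, with 23.6% within and 22.6% beyond, and chromosome 12, with 21.8% and 6.67%. At KO/KO strengths of 150 to 199 the shares were 22.8% and 42.3%, and without chromosomes 1 and 4 they were 13.7% and 27.2%. In 6 steps of distance from the end (under 5, 5 to 10, 10 to 20, 20 to 40, 40 to 60, and 60 Mb or more) the silent share was 13.1%, 10.1%, 16.8%, 24.0%, 31.4% and 36.0%. The mean KO/KO strength of the strong sites was nearly level over these steps, between 253 and 270.

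The same trend was present in KO/wt strengths that the rule did not use. Weaker default sites, defined as 12573 isolated autosomal windows called in KO/KO with KO/KO strengths from 50 to under 150 and wild-type SHR strengths of no more than 15, had a mean KO/wt strength of 11.8 ± 0.340 (SE over sites) under 5 Mb from an end and 7.01 ± 0.138 at 60 Mb or more. Their KO/wt strength was 10 or less in 52.5% and 76.5% of sites in these steps. Windows called in BN alone had mean KO/wt strengths of 3.71 and 4.15 in the same steps. The trend in KO/wt was thus present at default sites of both strength classes. Windows called in BN alone had by definition no KO/wt call. Their KO/wt median was 3, with 23.9% at 0 or lower, so a trend could hardly show there. Nothing is read from its absence. In wild-type SHR the strong sites had mean strengths of 4.89 near the end and 3.41 at 60 Mb or more, in WKY 21.8 and 18.9, and in BN 9.63 and 8.63. At the weaker sites the means were 3.10 and 2.04 in wild-type SHR, 22.6 and 18.5 in WKY, and 7.94 and 7.88 in BN. Apart from BN at the weaker sites, which was nearly level, those differences had the same direction. Their size against that in KO/wt cannot be judged without a common scale.

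**Figure D4:**
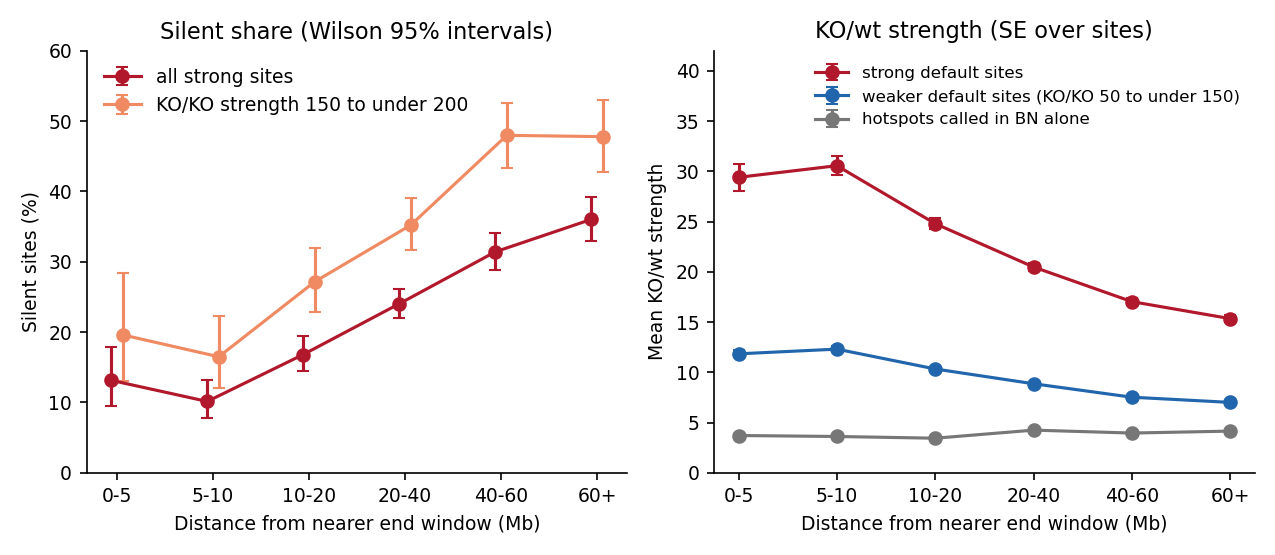
Left, percent of strong isolated default sites that were silent, for all of them and for KO/KO strengths of 150 to 199, and right, mean KO/wt strength of strong sites, weaker default sites and hotspots called in BN alone, by distance from the nearer end window of the chromosome in Mb; bars are Wilson 95% intervals on the left and SE over sites on the right. The silent share goes from 13.1% to 36.0% between the first and the last step, and the mean KO/wt strength of strong sites from 29.4 to 15.3. Hotspots called in BN alone, which by definition have no KO/wt call, stay between 3.45 and 4.25.

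Single ends differed among themselves. Of 38 ends with at least 20 strong sites within 20 Mb, 31 had a silent share below that of all strong sites and 7 above. At 3 ends no strong site was silent: the first end of chromosome 1 (0 of 40), the last of chromosome 14 (0 of 37) and the first of chromosome 19 (0 of 22). The last end of chromosome 1 had the opposite, with 20 of 43 silent (46.5%, 32.5 to 61.1%), and the first end of chromosome 17 had 17 of 45 (37.8%). Both ends of chromosome 1 thus stood at opposite sides of the overall share.

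Segments of 20 Mb gave a finer view. Of 142 segments with a strong site, 121 held at least 20, with 5048 sites in all. In 5 of them no site was silent, and in 12 at least 50% were. The highest share was 65.6% at 140 to 160 Mb of chromosome 4 (21 of 32, 48.3 to 79.6%), followed by 64.3% in the next segment of that chromosome (18 of 28, 45.8 to 79.3%). On chromosome 4 from 140 to 160 Mb the summed KO/wt strength of the strong sites was 3.61% of their KO/KO strength, and in the first 20 Mb of chromosome 1 it was 22.7%. These segments were named after their values were seen.

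The silent share of a segment ran opposite to the KO/wt strength of its weaker default sites, none of which are members. Over the 121 segments the Spearman coefficient was -0.849, given as a description, since all points share the same KO/wt library. Each segment held 31 to 180 weaker sites. Their mean KO/wt strength was 5.39 at 140 to 160 Mb of chromosome 4 and 20.4 in the first 20 Mb of chromosome 1. The coefficient was -0.783 over the 84 segments whose strong sites lay on average more than 20 Mb from an end. With the KO/wt strength of windows called in BN alone it was 0.0338. Nothing is read from that value, since those windows were by definition not called in KO/wt and were low there. With the KO/KO strength of the weaker sites it was 0.104. With their wild-type SHR strength it was -0.353, with BN -0.257 and with WKY -0.161, and with the number of KO/KO hotspots in the segment -0.359. With the mean distance of the strong sites from the chromosome end it was 0.562. Silence of strong sites and weakness of other default sites in KO/wt thus went together over regions of 20 Mb. Its cause was not tested.

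**Figure D5:**
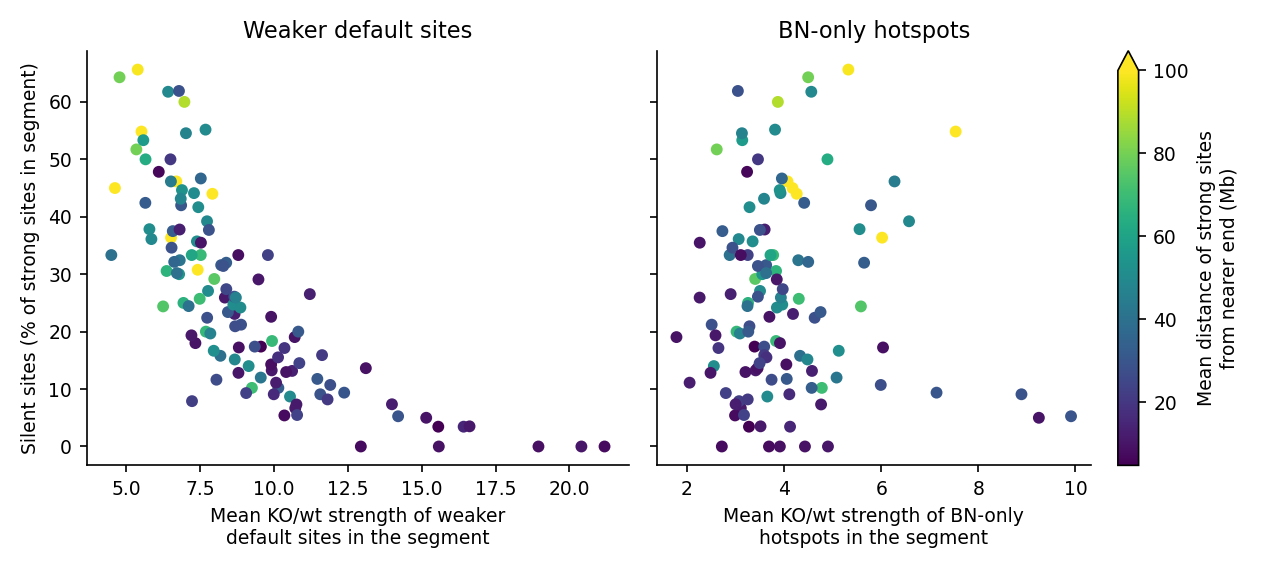
Percent of strong isolated default sites that were silent in each of 121 segments of 20 Mb, against the mean KO/wt strength of weaker default sites (left) and of hotspots called in BN alone (right) in the same segment, coloured by the mean distance of the strong sites from the nearer chromosome end in Mb. The points fall from upper left to lower right on the left (Spearman -0.849) and show no slope on the right (0.0338). The windows on the right were by definition not called in KO/wt and had little signal to vary.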

How the data were processed

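DMC1 SSDS was analysed in 5 of the 13 samples of the series, and the H3K4me3 and input libraries were not analysed here. The authors aligned reads to rn5 with a modified bwa and called hotspots from uniquely mapping type 1 single-stranded fragments with a Q-score over 30. The submitters' processing notes list BWA 0.7.12, bedtools 2.23.0 and MACS2 2.1.0.20150420. The deposited table holds a strength per window and library, which is a score whose scaling is not stated, together with a call mark that is 1 where a hotspot was called. The table's columns were assigned to libraries by strain and genotype.

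Members and comparison sets were chosen with earlier results of these data known. Distances run between window centres, except that the spacing condition uses starts. Shares have Wilson 95% intervals and medians have order-statistic 95% intervals. Depth in reads is unknown. Weaker default sites, hotspots called in BN alone, distance steps and segments were added after the data were seen.

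Named sites were the 10 members with the highest KO/KO strength, the 3 nearest to and 3 farthest from a window of 40 or more in wild-type SHR, the 3 highest in WKY and in BN, and 3 windows on each side of each limit. Alternatives changed each limit, the spacing, the reference windows and the end region. Sequence, annotation and densities per Mb had been planned and are not given, since a genome of the rn5 build was not used here. Values were computed in Python 3.11.15 with pandas 2.3.3, numpy 2.4.6 and scipy 1.17.1, and drawn with matplotlib 3.10.9. On simulated data of 96640 windows the code was tested, and 6 of 6 known answers were recovered.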

Additional observations from a re-analysis of the deposited data

How the results depend on the processing

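Of the reported values, 12 were recomputed under the alternatives that apply to each. The silent shares within and beyond 20 Mb and the segment coefficient among them were chosen after the data were seen. The comparison with hotspots called in BN alone was also chosen then. It was not recomputed, nor were the neighbour shares and the values of the comparison sets. Of 116 alternative values, 57 stayed within the interval or range of the reported one and 59 moved. For the number of sites that range was wide, since 976 against 1302 counted as within it. The count of reversed values was 0, but counts, shares, medians and distances could hardly reverse. Only the segment coefficient had a direction to lose, so this 0 is not read as support. In every alternative of the rule the silent share was higher beyond 20 Mb from an end than within, and the coefficient over segments was negative. Below, the end share is that of silent sites within 10 Mb of an end.

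With a KO/KO minimum of 100 there were 3339 silent sites, 36.4% of the strong ones, 48.1% on chromosome 4, 41.8% beyond and 24.5% within 20 Mb of an end, and the end share was 8.15%. With a minimum of 200 there were 542 sites, 17.1%, with 25.4% on chromosome 4, 20.8% beyond and 8.31% within 20 Mb, a distance to wild-type SHR windows of 37.5 kb and a coefficient of -0.718. With a KO/wt maximum of 5 there were 437 sites, 8.30%, with 13.8% on chromosome 4, 10.1% beyond and 4.26% within 20 Mb. With a maximum of 0 there were 84 sites, 1.59%, with 1.82% on chromosome 4, 2.10% beyond and 0.438% within 20 Mb, an end share of 3.57%, medians of 14.5 in WKY and 6.5 in BN, 0% called in BN, 23.5 kb to the nearest KO/KO hotspot and a coefficient of -0.541. At this limit chromosome 4 was close to the overall share. With KO/wt at most 2% of KO/KO there were 310 sites, 5.89%, with 10.4% on chromosome 4, 7.39% beyond and 2.44% within 20 Mb, an end share of 4.52% and a coefficient of -0.744. Taking sites not called in KO/wt gave 4229 sites, 80.3%, with 90.6% on chromosome 4, 86.5% beyond and 66.1% within 20 Mb, an end share of 10.4%, a WKY median of 19 and 18.1 kb to the nearest KO/KO hotspot.

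A wild-type SHR maximum of 5 gave a silent share of 28.4%, with 32.4% beyond and 17.8% within 20 Mb. A spacing of 10000 bp left 639 sites, at 50.5 kb from wild-type SHR windows and 27.6 kb from KO/KO hotspots, distances that this spacing lengthens by construction. Without the spacing condition the silent share was 23.0%, with 27.8% beyond 20 Mb and a distance of 38.8 kb. The distance was 29.8 kb to windows of 20 or more in wild-type SHR, 75.02 kb to those of 80 or more, 36.9 kb to called hotspots and 63.1 kb as a mean. With an end region of 5 Mb the end share was 2.53%, and as a share of all KO/KO hotspots the silent sites of chromosome 4 were 6.003%.

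No paired analysis was possible because each condition had a single library and no tests were run. The central 300 bp against the whole window was not run, since it needs a genome of rn5. Without read depth, a low KO/wt strength cannot be told apart from a signal too weak to measure in that library, and many silent sites, 372 of 1302, had KO/wt strengths of 9 or 10.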

Other observations

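The X chromosome lies outside the rule, and males carry a single copy of it. The study doubled X strengths in a comparison with autosomes, and whether the deposited X values carry that factor is not stated, so the limits may not be alike on X and autosomes. Under the same limits of strength and spacing it had 375 strong isolated default sites, with a median KO/KO strength of 383 and a median KO/wt strength of 21 (95% interval 19 to 24). Of these, 75 had KO/wt strengths of 10 or less, or 20% (16.3 to 24.3%). At KO/KO strengths of 150 to 199 the share was 28 of 61, or 45.9% (34.0 to 58.3%), against 36.2% on the autosomes (34.1 to 38.3%), with intervals that overlap. Summed KO/wt strength was 5.80% of summed KO/KO strength on X and 7.97% at the autosomal sites.

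Hotspots of the wild-type allele had another course along the chromosome. At isolated wild-type SHR hotspots not called in KO/KO, the ratio of the mean KO/wt to the mean wild-type SHR strength was 0.958 under 5 Mb from an end, 0.932 at 5 to 10 Mb and 1.01 at 10 to 20 Mb. It was 1.14, 1.21 and 1.19 in the 3 steps from 20 Mb on. At the strong isolated default sites KO/wt strength was 11.6% of KO/KO strength in the first of these steps and 5.91% in the last. Relative to the other SHR libraries, KO/wt strength near the ends was thus lower at hotspots of the wild-type allele and higher at default sites. The 2 ratios have different denominators, so their sizes cannot be set against each other, and the difference between them was not tested.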
